A study of Mus musculus with 72 samples.

Results

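Rhythms of gene expression over 24 h were described in the suprachiasmatic nucleus (SCN) of mice on a control diet, from 18 of the 72 libraries of a series that also holds liver and a methionine- and choline-deficient (MCD) diet. The 18 libraries were chosen by tissue and diet alone and formed 6 groups of 3, collected at circadian times CT0, CT4, CT8, CT12, CT16 and CT20. Per the labels, the mice were of the C57BL/6 background (C57BL/6J in the protocol) and ate the control diet, TD.220157, which was isocaloric to the MCD diet, for 11 days. They were housed singly, under light and dark for 10 days and in constant darkness on the last day, when they were killed. Every group held 2 libraries from males and 1 from a female. The protocol text speaks of male mice only, and the sample labels were followed. The SCN was cut by laser from stained frozen sections, so each library is a bulk sample of the nucleus and its edges, in which fewer cells of a type and less RNA per cell cannot be told apart. A single day was sampled, so that a 24 h rhythm and a difference across that one day cannot be told apart.

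The SCN is the pair of small hypothalamic nuclei above the optic chiasm that holds the central circadian clock of mammals. In its neurons, which nearly all release GABA, the factors CLOCK and BMAL1 bind E-boxes and drive the Period and Cryptochrome genes, whose proteins then repress CLOCK and BMAL1, while REV-ERB and ROR proteins act in opposite directions on Bmal1 (here under its older symbol, Arntl). The neurons fire fastest in the subjective day, and they pass time to one another and to the rest of the brain through peptides such as VIP, AVP and PROK2.

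**Figure D1:**
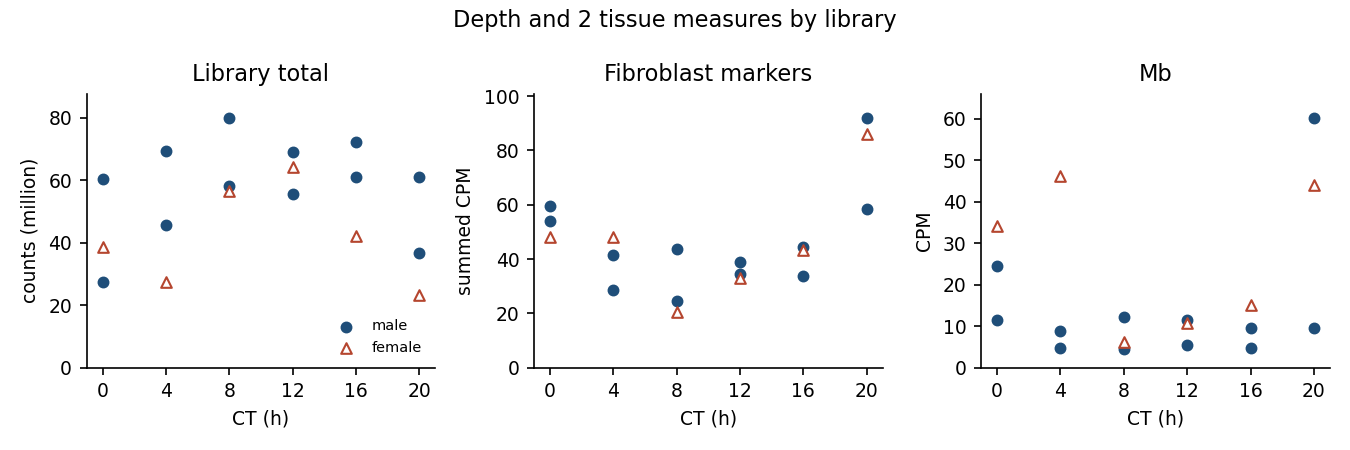
Library total in M counts (left), summed CPM of the fibroblast markers (middle) and CPM of Mb, the myoglobin gene (right), against circadian time in each of the 18 control SCN libraries, with males as filled circles and females as open triangles. The lowest totals are at CT0, CT4 and CT20, fibroblast markers are at 58.5 to 91.8 CPM at CT20 and 20.4 to 43.7 at CT8, and Mb is at 24.5 to 60.1 CPM in the 5 libraries of lowest total and 4.42 to 15.1 in the others.

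The libraries held 23.4 to 79.8 M gene counts (M for mega; median 57.35 M). The total itself varied with circadian time, with a 24 h range of 26.8 M and a peak at CT10.9 (permutation test over the 18 libraries, two-sided p = 0.0491). The 5 libraries with the lowest totals were all from CT0, CT4 or CT20. The females at CT20 and CT4 had 804 and 538 of the 15759 listed genes at 0 counts, against 7 to 187 in the other libraries. When each library was placed on the curves of 29 clock genes fitted without it, the median distance from its labelled time was 0.5 h and the largest was that of the CT20 female, which came out 3.1 h early. Where leaving out the females of CT4 and CT20, or adding a term for the library total (the depth term), moved the count of a described list by over 1.5 times, both counts are given. Defining markers of the labelled tissue were present: the 11 SCN neuron markers summed to between 2270 and 3890 CPM (counts per M library counts), and 9 measured markers of other hypothalamic neurons to between 118 and 284 CPM, led by Oxt and Trh, so neighbouring neurons were present.

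Of 15759 genes tested, 2378 (15.1%) had a 24 h component at an adjusted p below 0.05 (edgeR quasi-likelihood F test of the cosine and sine contrast over the 6 time means, Benjamini-Hochberg adjustment). Sizes are given as the fitted range, the log2 difference between the peak and the trough of a 24 h cosine, and times as the fitted peak. Over all genes tested the median range was 0.31, and over the called genes it was 0.53, with 383 genes at 1 or more (a doubling) and 80 at 2 or more. The standard error of a called gene's peak time had a median of 0.85 h. Called genes fell into a day and a night group: the 4 h window centred on CT8 held 664 of them (27.9%) and that centred on CT20 held 624 (26.2%). The windows centred on CT0, CT4, CT12 and CT16 held 277, 210, 330 and 273. Among genes that were not called, the windows around CT8 and CT20 held 19.2% and 15.7% of the fitted peaks.

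**Figure D2:**
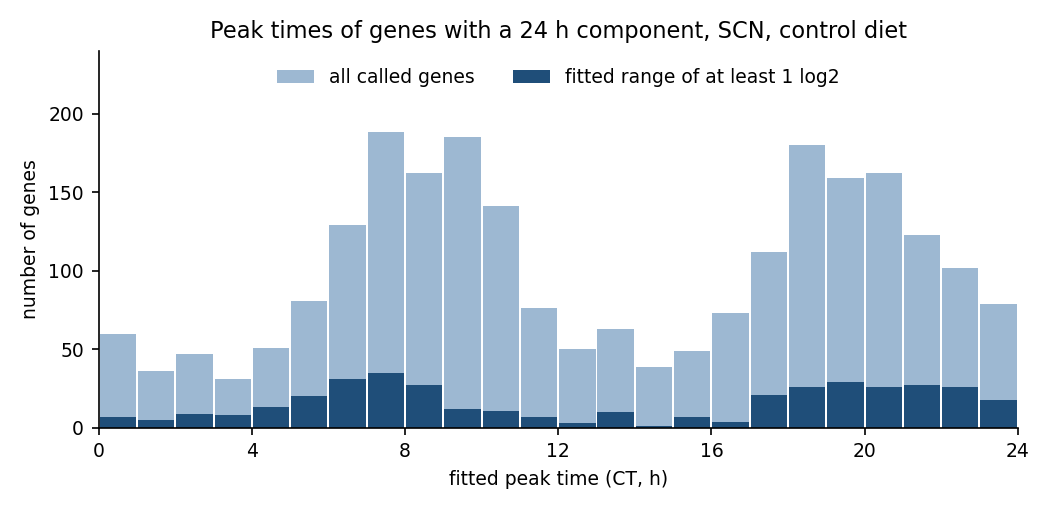
Number of genes called for a 24 h component by fitted peak time in 1 h steps (light bars), with those of a range of at least 1 log2 in dark. The bars are tallest between CT6 and CT11 and between CT17 and CT22.

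With a term for the library total in the fit, 1711 of the 2378 calls were kept. The loss was uneven across the day: 89.4% of the calls around CT16, 86.2% around CT4, 81.1% around CT20 and 73.8% around CT8 were kept, but only 49.1% around CT0 and 46.7% around CT12. The cosine fitted to the library totals also peaked in the window around CT12, at CT10.9, although the highest mean total was at CT8 (64.8 M ± 13, SD, n = 3) and the lowest at CT20 (40.4 M ± 19.2). The part of depth in these calls was not tested further. Without the CT4 and CT20 females, 1862 of the calls were kept. Here the windows around CT4 and CT16 kept the least, 67.1% and 68.9%. The others kept 77.7% around CT20, 80.9% around CT8, 83.4% around CT0 and 84.8% around CT12. An any-time test of the 6 groups, with no assumption about shape, called 1354 genes (8.59%), of which 1310 were among the 2378.

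**Figure D3:**
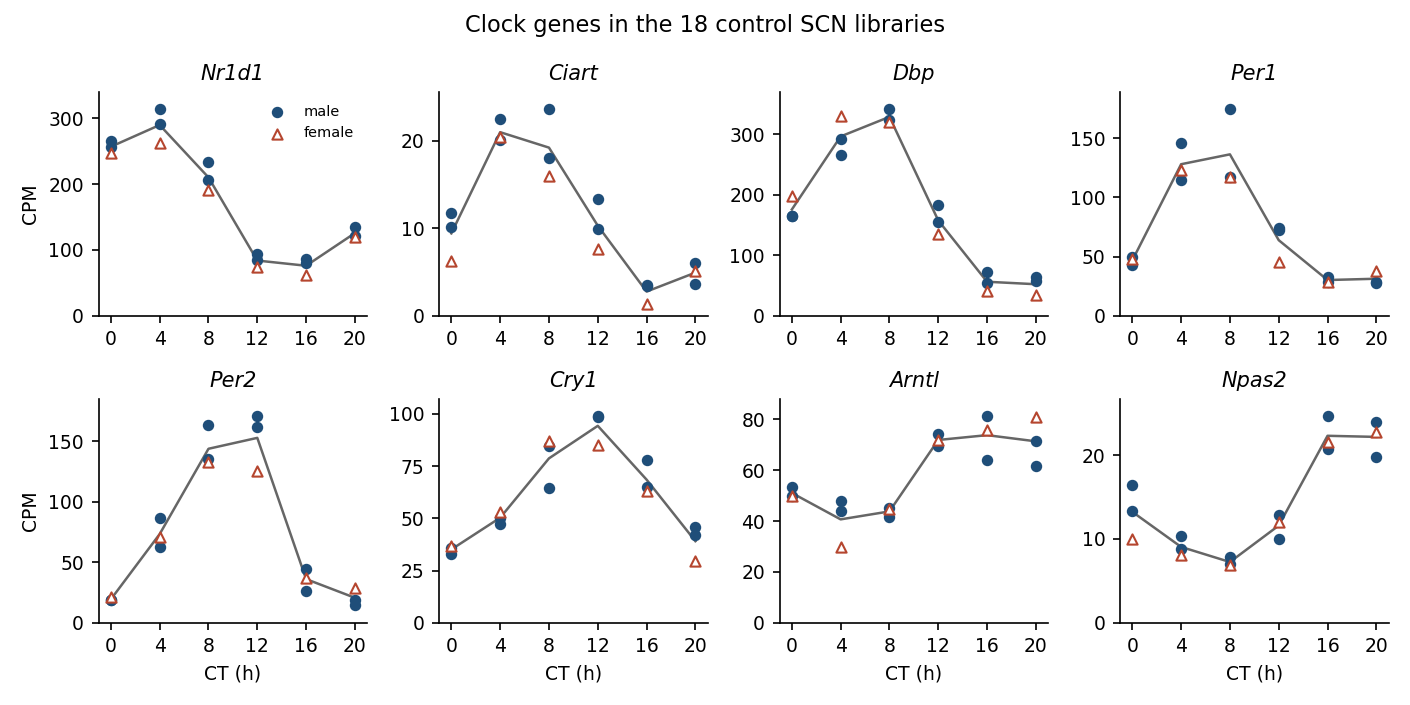
CPM of clock genes against circadian time in the 18 control SCN libraries, with males as filled circles, females as open triangles and a line through the 3-library means. Nr1d1 and Dbp crest by day, Per2 and Cry1 later in the day, and Arntl and Npas2 by night.

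Called clock genes moved as a sequence through the day (the plot of clock genes by time). Of the 29 measured genes on the 5 clock lists, 20 were called: 4 of 7 activators, 5 of 5 Periods and Cryptochromes, 5 of 5 REV-ERB, DEC and CHRONO repressors, 4 of 4 PAR bZIP factors with Nfil3, and 2 of 8 genes of clock protein turnover. The median ranges of these lists were 0.99, 1.61, 1.87, 1.45 and 0.26 log2, against 0.31 over all genes. Of the activators, Arntl, which encodes BMAL1, stood at 69.5 to 74.4 CPM at CT12, 64 to 81.5 at CT16 and 61.7 to 80.8 at CT20, and at 30 to 53.4 from CT0 to CT8. Every library from CT12 to CT20 was thus above every library from CT0 to CT8. Its range was 0.99 ± 0.13 log2 (SE) with a peak at CT16.45 ± 0.51 h (edgeR adjusted p = 3.95e-06). Npas2, a paralog of Clock, was at 19.8 to 24.7 CPM at CT16 and CT20 and at 6.87 to 7.87 at CT8, where its 3 libraries were below all others. Its range of 1.69 ± 0.13 exceeded that of Arntl. Clock was not called (range 0.41 ± 0.15, edgeR adjusted p = 0.152), nor was Arntl2. Rora and Rorb encode ROR proteins, and both were called, with peaks at CT8.18 and CT5.50 and ranges of 1.83 and 0.64.

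The repressors peaked in the order Nr1d1, Bhlhe41, Ciart, Bhlhe40, Nr1d2. Nr1d1, which encodes REV-ERB alpha, was at 248 to 266 CPM at CT0, 263 to 315 at CT4, 191 to 234 at CT8, 74.1 to 93.4 at CT12, 61.2 to 86 at CT16 and 120 to 135 at CT20. The groups at CT0 and CT4 overlapped, and so did those at CT12 and CT16. Its range was 2.14 ± 0.09, with the earliest peak of any called clock gene, at CT3.08 ± 0.17 h (edgeR adjusted p = 3.8e-14). Nr1d2, its paralog, peaked more than 3 h later, at CT6.71 ± 0.22 h. Ciart, which encodes the repressor CHRONO, had the largest range of the list, 2.89 ± 0.29, from 20.1 to 22.5 CPM at CT4 to 1.38 to 3.57 at CT16, where all libraries were below those of any other time. Bhlhe40 and Bhlhe41, which encode DEC1 and DEC2, peaked at CT6.04 and CT5.22.

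Per1 peaked at CT6.45 ± 0.28 h, Per2 at CT9.27 ± 0.26 h, Per3 at CT10.11 ± 0.36 h, Cry2 at CT9.99 ± 0.51 h and Cry1 at CT11.12 ± 0.31 h. Per1 thus came before Per2 by more than the errors of both, whereas Cry2 and Per3 lay within theirs. Per2 was at 18.6 to 21 CPM at CT0, 62.2 to 86.4 at CT4, 133 to 163 at CT8, 125 to 171 at CT12, 26.4 to 44.6 at CT16 and 14.8 to 28.5 at CT20. Its libraries at CT8 and CT12 overlapped and were above all others, and its range, 3.42 ± 0.24, was the largest of the clock genes (edgeR adjusted p = 3.8e-14). Cry1 reached 85 to 99.1 CPM at CT12 and was at 32.8 to 36.9 at CT0, a range of 1.47 ± 0.12, while Cry2 had a range of only 0.60 ± 0.08. Dbp, a PAR bZIP output factor, went from 35 to 64.1 CPM at CT20 to 320 to 342 at CT8 (range 2.96 ± 0.21). Tef and Hlf, of the same family, peaked at CT8.20 and CT8.33. Nfil3, which encodes a repressor that competes with them for D-boxes, was opposite, with a peak at CT17.84 ± 0.33 h and a range of 1.60 ± 0.14. Among genes that act on clock proteins, Fbxl21, an F-box protein of Cryptochrome turnover, had a range of 2.68 ± 0.27 with a peak at CT8.93, and Csnk1e one of 0.38 at CT8.60, not called with the depth term (edgeR adjusted p = 0.0729). Csnk1d, Btrc, Fbxw11, Gsk3b and Usp2 were not called.

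Peptide transcripts were called in 7 of 15 cases (46.7%, beside 15.1% of all genes), with a median range of 1.03. Those with the largest ranges peaked by day. Prok2 encodes prokineticin 2, an output peptide of the SCN. It was at 3.59 to 15.3 CPM at CT0, 68.1 to 83.4 at CT4, 35.8 to 45.7 at CT8, 5.27 to 6.84 at CT12, 0.0724 to 1.31 at CT16 and 0 to 1.31 at CT20. All CT4 libraries were above all others, and the mean at CT4 was 125 times that at CT20. Its fitted range, 8.24 ± 0.94, was the largest of all called genes, and its peak was at CT5.89 ± 0.44 h (edgeR adjusted p = 1.49e-09). Both that ratio and this range rest on night values near 0 CPM, and their sizes are uncertain to that extent. Nmu, which encodes neuromedin U, was scarce at 1.45 to 4.52 CPM at CT8 and had 0 counts in all 3 libraries at CT20, so its mean at CT8 was at least 107-fold higher against a floor of 3 counts over the CT20 group. Avp, which encodes vasopressin, was at 393 to 421 CPM at CT0, 781 to 974 at CT4, 880 to 1130 at CT8, 606 to 816 at CT12, 218 to 302 at CT16 and 142 to 248 at CT20. CT4 and CT8 overlapped, CT16 and CT20 were below all other times, and the range was 2.50 ± 0.16 with a peak at CT7.16 ± 0.25 h. Vip, the peptide of the ventral SCN, was far flatter, at 824 to 846 CPM at CT4 and 1100 to 1560 at CT12, a range of 0.50 ± 0.12 with a peak at CT13.72. Its call was lost in the edgeR fits without the CT0 male 2, the CT4 female, the CT12 male 1 or the CT16 male 1 (adjusted p up to 0.11), without both the CT4 and CT20 females (0.0654) and with the depth term (0.103). Pdyn, the prodynorphin gene, peaked at CT6.64, Nms, which encodes neuromedin S, at CT2.51 and Cck, which encodes cholecystokinin, at CT0.81. Grp, a second peptide of the ventral SCN, was not called (range 0.27 ± 0.16, edgeR adjusted p = 0.5), nor were Sst (range 0.73 ± 0.28, edgeR adjusted p = 0.125) and Penk (range 0.15 ± 0.20, edgeR adjusted p = 0.855).

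**Figure D4:**
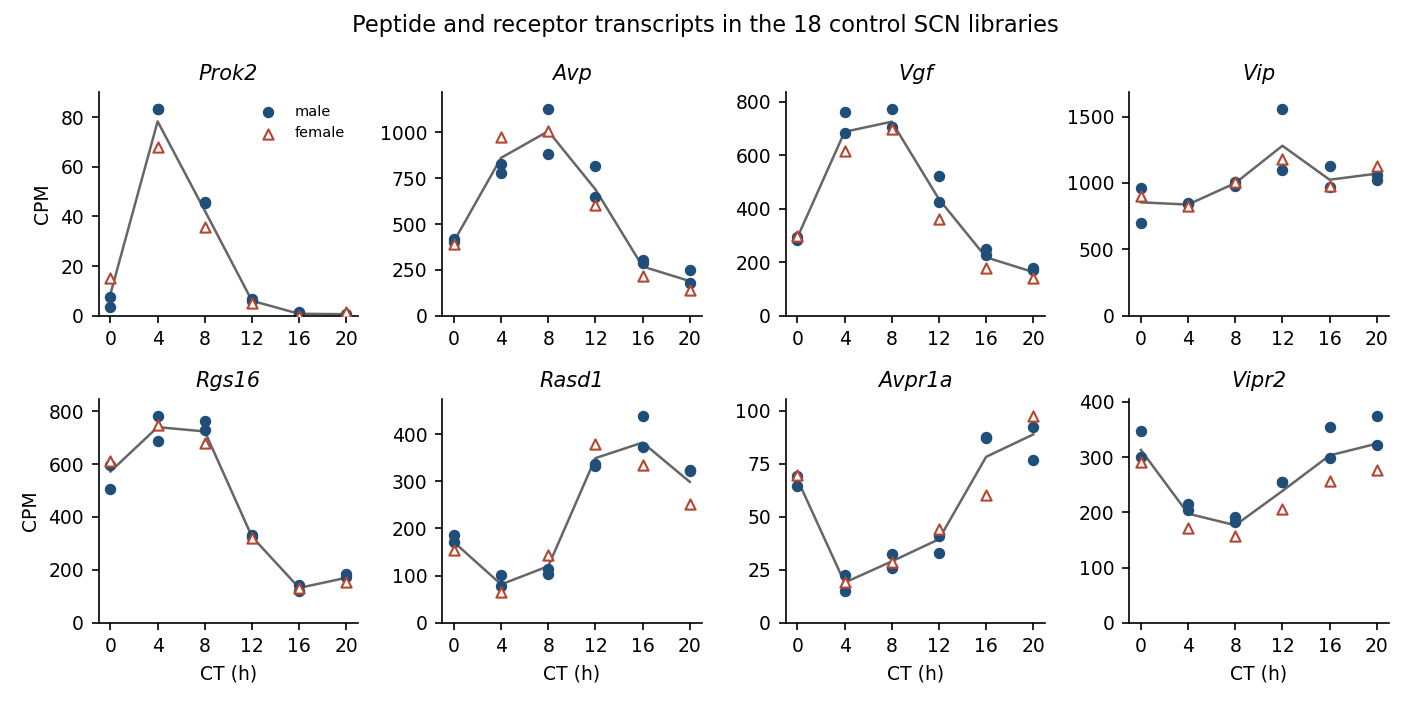
CPM of peptide, receptor and G protein signalling genes against circadian time in the 18 control SCN libraries, with males as filled circles, females as open triangles and lines through the means. Prok2, Avp, Vgf and Rgs16 are high by day and Rasd1, Avpr1a and Vipr2 by night, and Vip shows a smaller change.

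Genes of peptide processing that were called all peaked in the second part of the day, between CT6.91 and CT10.88. Of 15 genes 5 were called (33.3%, beside 15.1% of all genes). The median range of the 15 was 0.23, against 0.31 over all genes. Vgf, a granin-like precursor of secreted peptides, went from 142 to 178 CPM at CT20 to 698 to 775 at CT8 (range 2.27 ± 0.09, edgeR adjusted p = 3.75e-11). Pcsk1, the prohormone convertase 1 gene, was at 97.7 to 127 CPM at CT8 and 22.4 to 41.9 at CT0 (range 1.72 ± 0.26). Chga, Ptprn and Pam, a chromogranin, a dense-core vesicle protein and the amidating enzyme, had ranges of 1.07, 0.64 and 0.52. With the depth term Pam was not called (edgeR adjusted p = 0.084).

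Called receptors of the SCN peaked mostly by night, when Avp and Prok2 were low. Of 16 measured SCN receptors 7 were called (43.8%, beside 15.1% of all genes), with a median range of 0.68. Of the 7, 6 had peaks between CT15.22 and CT19.48. Avpr1a, the vasopressin receptor V1a, was at 15.1 to 22.7 CPM at CT4, below all other libraries, and at 76.7 to 97.7 at CT20. Its range was 2.14 ± 0.25 with a peak at CT18.69 ± 0.45 h (edgeR adjusted p = 1.13e-10). Vipr2, the VIP receptor VPAC2, peaked at CT19.48 ± 0.36 h, from 157 to 191 CPM at CT8 to 277 to 375 at CT20. Prokr2, the receptor of prokineticin 2, peaked at CT17.72 with a range of 0.44, and its call was lost without any one of 7 libraries (edgeR adjusted p up to 0.0748). Sstr1, Mtnr1a and Gpr176, receptors for somatostatin and melatonin and an orphan receptor of the SCN, peaked at CT15.22, CT19.42 and CT17.96. Gpr19, another orphan receptor, was the exception, with a peak at CT5.06.

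Of the RGS proteins, which speed the shut-off of G proteins, and small G proteins, 10 of 18 were called (55.6%, beside 15.1% of all genes). The median range of the list was 0.51. Of the called genes, 3 peaked around CT4, 2 around CT8, 1 around CT16 and 4 around CT20. Rgs16 was at 506 to 613 CPM at CT0, 689 to 783 at CT4, 679 to 763 at CT8, 319 to 332 at CT12, 122 to 142 at CT16 and 153 to 186 at CT20. The CT4 and CT8 groups overlapped and the CT16 group was below all others, with a range of 2.73 ± 0.17 and a peak at CT5.05 ± 0.24 h (edgeR adjusted p = 6.23e-16). Rasd1, which encodes the Ras-like protein DEXRAS1, ran opposite to it, from 64.3 to 102 CPM at CT4 to 334 to 439 at CT16 (range 2.29 ± 0.20, peak at CT16.28). Gem and Rasd2 peaked at CT4.58 and CT5.64. In cyclic AMP signalling 9 of 27 genes were called (33.3%), with a median range of 0.30, against 0.31 over all genes. The calls of Adcy5, Pde7b and Prkar2a were each lost without at least 1 single library. The phosphodiesterases Pde10a and Pde4d peaked at CT6.55 and CT7.80 with ranges of 1.92 ± 0.57 and 1.46 ± 0.35, Crem, a cyclic AMP response factor, at CT7.11, and the adenylyl cyclases Adcy1 and Adcy8 at CT19.82 and CT21.42.

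Immediate-early genes, which respond to neuronal activity, were called in 11 of 19 cases (57.9%, beside 15.1% of all genes), with a median range of 1.31. Of the 11, 8 peaked within the window around CT4. Fosl2 was at 44.4 to 65.4 CPM at CT4 and 6.4 to 10.6 at CT16 (range 2.63 ± 0.31, peak at CT4.61 ± 0.45 h). Dusp1, a MAP kinase phosphatase, was at 39.5 to 44.1 CPM at CT4, above all other libraries, and 11 to 12.9 at CT16 (range 1.76 ± 0.13, edgeR adjusted p = 2.98e-07). Sik1, a salt-inducible kinase, peaked at CT4.92 with a range of 1.83 ± 0.21, Junb at CT3.71 with 1.65, Nr4a1 at CT2.92 with 1.75 and Fos at CT3.00 with 1.61. Fosb and Ier5 lay outside this window, at CT21.81 and CT21.67, and Arc at CT0.14. Fosb and Arc were not called with the depth term (edgeR adjusted p = 0.118 and 0.124), and Arc not without the CT0 male 2 or the CT12 female (up to 0.0871).

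Promoters of some of these day-phase genes are shown with the motif that clock or cyclic AMP factors are known to bind, to show where the motif lies in genes whose values are given above. The sequences are the 250 bases before the transcription start on the gene's strand, 5′ to 3′, from RefSeq on build GRCm38.p6, which is not the build named for the counts (GRCm39). Capitals mark the E-box CACGTG in Prok2 (ENSMUSG00000030069.16, chr6:99726393-99726642, minus strand), Avp (ENSMUSG00000037727.7, chr2:130582589-130582838, minus strand) and Ciart (ENSMUSG00000038550.11, chr3:95882229-95882478, minus strand), the cyclic AMP response element (CRE) TGACGTCA in Pcsk1 (ENSMUSG00000021587.6, chr13:75089607-75089856, plus strand) and Dusp1 (ENSMUSG00000024190.8, chr17:26508473-26508722, minus strand), and the ROR element, read on the opposite strand, in the night-phase gene Nfil3 (ENSMUSG00000056749.8, chr13:52981040-52981289, minus strand). Other motifs in them stay in lower case, such as an E-prime box in Avp and an E-box in Dusp1.
Prok2: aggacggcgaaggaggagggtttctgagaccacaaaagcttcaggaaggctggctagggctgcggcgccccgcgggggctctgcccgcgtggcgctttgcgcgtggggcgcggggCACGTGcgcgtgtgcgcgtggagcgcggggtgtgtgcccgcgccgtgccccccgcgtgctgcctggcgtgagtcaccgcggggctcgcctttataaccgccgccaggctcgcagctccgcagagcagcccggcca
Avp: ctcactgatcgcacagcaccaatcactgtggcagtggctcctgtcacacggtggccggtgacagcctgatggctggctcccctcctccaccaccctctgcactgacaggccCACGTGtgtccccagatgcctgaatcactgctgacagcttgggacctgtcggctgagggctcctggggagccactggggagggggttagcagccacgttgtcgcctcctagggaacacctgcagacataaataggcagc
Ciart: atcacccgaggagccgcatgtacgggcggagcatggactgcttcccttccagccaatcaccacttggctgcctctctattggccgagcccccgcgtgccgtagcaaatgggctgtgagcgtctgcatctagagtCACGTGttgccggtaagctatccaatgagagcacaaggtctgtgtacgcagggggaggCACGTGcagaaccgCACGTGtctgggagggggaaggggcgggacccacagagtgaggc
Pcsk1: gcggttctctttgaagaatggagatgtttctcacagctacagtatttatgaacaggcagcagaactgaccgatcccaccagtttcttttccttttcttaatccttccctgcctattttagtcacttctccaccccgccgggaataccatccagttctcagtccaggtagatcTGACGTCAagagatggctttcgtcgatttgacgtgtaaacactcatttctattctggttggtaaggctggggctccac
Dusp1: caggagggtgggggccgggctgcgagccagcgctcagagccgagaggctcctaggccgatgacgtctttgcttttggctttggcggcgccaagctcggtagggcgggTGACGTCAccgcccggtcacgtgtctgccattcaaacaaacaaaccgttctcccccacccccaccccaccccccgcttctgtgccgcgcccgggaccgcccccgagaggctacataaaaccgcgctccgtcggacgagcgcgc
Nfil3: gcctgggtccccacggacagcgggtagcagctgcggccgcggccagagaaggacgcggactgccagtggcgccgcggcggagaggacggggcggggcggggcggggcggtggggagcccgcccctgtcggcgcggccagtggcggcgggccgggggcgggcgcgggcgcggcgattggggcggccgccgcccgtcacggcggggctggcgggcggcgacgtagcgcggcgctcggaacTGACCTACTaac

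The motif was at its farthest 143 bases before the start in these 6 genes, and Ciart held 3 E-boxes. Promoters of 300 bases (250 before to 50 after the start) were matched for 11166 of the 15759 genes tested and 1779 of the called genes, and were searched on both strands. An E-box was in 95 of 497 promoters of genes that peaked around CT8 (19.1%, 95% Wilson interval 15.9% to 22.8%), in 14.5% of those around CT4 (9.91% to 20.6%), in 14.7% of those around CT12 (10.9% to 19.7%), in 9% of those around CT16 (5.77% to 13.8%), in 8.42% of those around CT0 (5.25% to 13.2%), in 8.42% of those around CT20 (6.25% to 11.3%) and in 11.4% of all matched promoters. A CRE was in 8.45% around CT8 (6.31% to 11.2%), 4.82% around CT4 (2.46% to 9.22%), 6% around CT16 (3.47% to 10.2%), 3.19% around CT12 (1.62% to 6.16%), 1.58% around CT0 (0.538% to 4.54%), 1.26% around CT20 (0.58% to 2.73%) and 3.47% of all. Around CT4, where Prok2, Ciart and Dusp1 peaked, both intervals thus include the share of all promoters. The E-prime box CACGTT, which differs from the E-box in its last letter, was in 10.2% around CT4 (6.49% to 15.8%) and 6.30% of all. It was in 7.44% around CT8 (5.45% to 10.1%), 3.98% around CT12 (2.18% to 7.18%), 7.5% around CT16 (4.6% to 12%), 3.58% around CT20 (2.25% to 5.66%) and 4.21% around CT0 (2.15% to 8.09%). The ROR element (ANTAGGTCA or ANTGGGTCA) was in 1.28% of all promoters and 1.41% of those of called genes, and the D-box (TTATGTAA or TTACGTAA) in 0.896% and 1.01%. A match is a description of these letters and not a binding site.

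Around CT12 the called genes of largest range with a mean of at least 5 CPM were Per3, Nat8f3, Ramp2, Bdnf and Adcyap1. Bdnf encodes brain-derived neurotrophic factor and was at 11.5 to 15.2 CPM at CT12, above every other library, and at 2.23 to 4.37 at CT0 (range 1.73 ± 0.30, edgeR adjusted p = 0.00138). Adcyap1 encodes the peptide PACAP and was at 14.3 to 17.9 CPM at CT12 and 4.79 to 5.14 at CT4 (range 1.65 ± 0.19, peak at CT13.48). The call of Ramp2 was lost without any one of 9 libraries (edgeR adjusted p up to 0.173). Gadd45g, a stress-response gene of the cell cycle list, was at 147 to 161 CPM at CT12 and at 49 to 79.7 in the 15 other libraries. On that list 4 of 14 genes were called (28.6%, beside 15.1% of all genes), Gadd45b, Gadd45g, Wee1 and Gadd45a. The median range of the 14 was 0.61.

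Called chaperones and folding enzymes of the endoplasmic reticulum (ER) peaked from late day into the night, from CT8.64 to CT18.63. Of 21 genes 13 were called (61.9%, beside 15.1% of all genes), with a median range of 0.46. Xbp1, the transcription factor of the unfolded protein response, was at 243 to 277 CPM at CT12, above all other libraries, and at 143 to 158 at CT0 (range 0.77 ± 0.12, peak at CT11.96, edgeR adjusted p = 8.78e-06). Herpud1 and Dnajb9 peaked before it, at CT8.64 and CT8.87, and Hspa5, which encodes the chaperone BiP, after it, at CT14.87 with a range of 0.56. Manf, Pdia6, Pdia4 and Calr followed at CT15.30, CT16.35, CT17.51 and CT18.63. Sdf2l1 lost its call without any one of 11 libraries (edgeR adjusted p up to 0.103).

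The heat shock genes that were called all peaked in the night. Of 26 genes 20 were called (76.9%, beside 15.1% of all genes), all between CT16.36 and CT21.44. The median range of the 26 was 0.53. Without the CT4 and CT20 females 21 of 26 were called, and with the depth term 18. Dnajb1, an HSP40, was at 59.6 to 64.3 CPM at CT4, below all other libraries, and at 155 to 186 at CT16, above all others (range 1.26 ± 0.16, peak at CT17.66, edgeR adjusted p = 3.79e-08). The inducible HSP70 gene Hspa1b was at 2.55 to 3.98 CPM at CT4, 8.21 to 16.7 at CT16 and 8.32 to 30.7 at CT20 (range 2.33 ± 0.41, edgeR adjusted p = 0.000886), with the widest spread at CT20. Its near-identical copy Hspa1a had a peak at CT19.30, and a call that was lost without the CT8 male a, the CT8 male b or the CT20 male 1 (edgeR adjusted p up to 0.132); reads can be split between the copies. Hspb1, which encodes HSP27, was at 1.24 to 2.73 CPM at CT8 and 4.42 to 9.99 at CT20 (range 1.67 ± 0.32). The abundant Hspa8, Hsp90aa1 and Hsp90ab1, at means of 1450, 1030 and 1240 CPM, had ranges of 0.72, 0.66 and 0.42 and peaks at CT18.99, CT19.80 and CT20.80. Hsph1, an HSP110, and Stip1, a co-chaperone, had ranges of 1.03 and 0.83.

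Promoters of 2 of these genes are shown because the element was frequent among them. Capitals mark the heat shock element GAANNTTC, the site known for heat shock factor, in the 250 bases before the start (RefSeq, GRCm38.p6) of Hspa1b (ENSMUSG00000090877.4, chr17:34959239-34959488, minus strand) and Hspb1 (ENSMUSG00000004951.11, chr5:135887669-135887918, plus strand).
Hspa1b: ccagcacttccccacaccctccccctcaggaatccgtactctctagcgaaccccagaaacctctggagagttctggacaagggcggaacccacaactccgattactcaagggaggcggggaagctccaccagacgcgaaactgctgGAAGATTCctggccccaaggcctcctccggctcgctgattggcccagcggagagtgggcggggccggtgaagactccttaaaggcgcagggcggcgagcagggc
Hspb1: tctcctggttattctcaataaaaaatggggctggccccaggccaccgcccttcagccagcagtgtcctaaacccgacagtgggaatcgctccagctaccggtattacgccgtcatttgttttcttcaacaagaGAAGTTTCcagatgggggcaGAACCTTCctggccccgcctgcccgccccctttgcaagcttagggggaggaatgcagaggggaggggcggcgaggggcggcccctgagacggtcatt

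Over 300 bases this element was in 11 of the 15 called heat shock genes with a matched promoter, in 0 of the 6 that were not called, and in 6.81% of all matched promoters. In the 250 bases before the start alone it was in 8 of the 15 (53.3%) and in 5.92% of all. By peak window it was in 6.24% to 8.21% of called genes in each of the 6 windows, and all 6 intervals include the share of all promoters.

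Of 15 genes for RNA-binding proteins that respond to temperature 5 were called (33.3%, beside 15.1% of all genes; median range 0.28), and 8 without the CT4 and CT20 females, with peaks of the 5 spread from CT5.52 to CT16.62. Rbm3, which is known to be induced by cold, was at 59.5 to 75.3 CPM at CT12 and 20.4 to 21.2 at CT20, where its libraries were below all others, with a peak at CT9.31 ± 0.47 h and a range of 1.57 ± 0.20 (edgeR adjusted p = 8.54e-05). Srsf5, a splicing factor, peaked at CT5.52, and Tra2b, Tra2a and Srsf10, of the same kind, at CT12.58, CT16.62 and CT16.00, with Srsf10 lost without any one of 6 libraries (edgeR adjusted p up to 0.109).

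Around CT16 and CT20 the called genes of largest range were of varied function. Pcdhac1, a protocadherin that shares exons with the other genes of its cluster and is uncertain for that reason, was at 45.3 ± 9.03 CPM at CT16 and 47 ± 30.2 at CT20 (SD, n = 3), against 5.4 ± 3.64 at CT4 (SD, n = 3). Il22b and Il22, near-identical cytokine genes between which reads can be split, had ranges of 3.71 ± 0.37 and 3.92 ± 0.52 and peaked at CT19.18 and CT19.44. Il22b was at 22.4 to 26.6 CPM at CT20, 21.5 to 25.4 at CT16 and 1.03 to 2.2 at CT8. Its CT8 libraries were below all others. Ankrd63, an ankyrin repeat gene, was at 20.8 to 26.8 CPM at CT0, above all other libraries, and at 2.05 to 2.66 at CT12 (range 3.48 ± 0.26, peak at CT21.58). Sertm1, Tafa4 and Cobll1 peaked at CT17.69, CT15.25 and CT17.35 with ranges of 2.2, 2.17 and 1.70.

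By day, signalling genes were among the called genes of largest range besides Prok2. Rasl11b, a Ras-like gene, was at 237 ± 11.3 CPM at CT4 and 16.8 ± 2.34 at CT16 (SD, n = 3), a range of 4.31 ± 0.26. Dusp4, another MAP kinase phosphatase, had a range of 4.04 ± 0.33 with a peak at CT5.99. Around CT8 the 5 largest ranges among called genes with a mean of at least 5 CPM were those of Ntsr1 (3.83 ± 0.60), Per2, Klb (3.04 ± 0.45), Creb3l1 (2.79 ± 0.25) and Fbxl21. Ntsr1, Klb and Creb3l1 encode a neurotensin receptor, the FGF co-receptor beta-Klotho and a membrane-bound transcription factor.

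Of the 5 called genes of largest range around CT0 with a mean of at least 5 CPM, 1 was called with the depth term, Tmem51, a membrane protein gene. It was at 90.1 to 102 CPM at CT0, above all other libraries, and at 19.6 to 26.3 at CT12, below all others (range 2.06 ± 0.10, edgeR adjusted p = 8.01e-13; 9.3e-12 with the depth term). The other 4 were Col1a1, Scgb1a1, Thbs1 and Des, which encode a collagen, a club cell secretory protein, a thrombospondin and a muscle filament, and their values with the depth term missed the threshold (edgeR adjusted p = 0.188, 0.43, 0.399 and 0.503). Looked up after the values were seen, Mb, the myoglobin gene, was at 24.5 to 60.1 CPM in the 5 libraries of lowest total and at 4.42 to 15.1 in the 13 others. The 2 sets did not overlap for Fn1 (46.1 to 106 against 13.1 to 40.7 CPM), Scgb1a1, Thbs1, Des and Spp1 either, and overlapped for Col1a1 and Tnnt2. The share of all genes tested that separate these sets was not counted, so the separation cannot be called particular to these genes. Scgb1a1, Des, Mb, Fn1 and Tnnt2 each lost their call without any one of 6 single libraries, the CT0 male 2 and CT20 male 1 among them (edgeR adjusted p up to 0.162), Thbs1 without the CT0 male 2 or CT12 male 1 (up to 0.064), and Spp1 without the CT0 male 2, CT8 female or CT20 male 1 (up to 0.0775).

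Ion channel and synaptic genes were called in shares from 15.6% for sodium, calcium and HCN channels to 30.4% for the GABA system, beside 15.1% of all genes tested. Of potassium channel genes 8 of 38 were called (21.1%, median range 0.44), and 5 without the CT4 and CT20 females. Kcnc2, which encodes the fast delayed rectifier Kv3.2, was at 55.9 to 60.1 CPM at CT20 and 105 to 133 at CT12 (range 1.2 ± 0.11, peak at CT9.42, edgeR adjusted p = 3.15e-10). Kcnn2 and Kcnmb4, of calcium-activated channels, peaked at CT16.06 and CT23.21, and Kcnd3 at CT17.18 with a call that was lost without the CT16 male 1 (edgeR adjusted p = 0.0612). Of sodium, calcium and HCN channel genes 5 of 32 were called (median range 0.28), led by the pacemaker channel Hcn4 (range 0.80, peak at CT20.33) and the calcium channel subunit Cacna2d3 (range 0.80, peak at CT23.70). The call of Cacna1b was lost without any one of 6 libraries (edgeR adjusted p up to 0.105).

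In the GABA system 7 of 23 genes were called (median range 0.27), none with a range above 0.49. Gad1 and Gad2, whose products make GABA, peaked at CT5.86 and CT8.01 with ranges of 0.45 and 0.38, and the call of Gad2 was lost without the CT8 male a (edgeR adjusted p = 0.0615). Among glutamate receptor genes 7 of 25 were called (median range 0.37), of which Grm4 (range 1.04, peak at CT18.62), Gria2 (range 0.51, peak at CT14.85) and Grin2c (range 0.50, peak at CT18.51) kept their calls without any one library, and Grin2a, Grin2b, Grik1 and Dlg4 did not (edgeR adjusted p up to 0.17). Of the release machinery 5 of 27 were called (median range 0.22), with the synaptotagmin genes Syt5 and Syt4 at CT7.94 and CT8.43 and ranges of 0.86 and 0.82.

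The lists of ribosomal protein, respiratory chain, proteasome and NAD and redox genes were called in shares of 0% to 6.17%, beside 15.1% of all genes tested. Of cytosolic ribosomal protein genes 5 of 81 were called (6.17%, median range 0.27), each with a range of at most 0.42, and none of the 5 without the CT4 and CT20 females. An unadjusted p below 0.05 was reached by 23 of the 81, and by 4536 of the 15759 genes tested. Of nuclear-encoded respiratory chain genes 1 of 80 was called (Ndufb5, range 0.33; lost without any one of 12 libraries, edgeR adjusted p up to 0.134, and 0 of 80 without the CT4 and CT20 females or with the depth term), and 13 had an unadjusted p below 0.05. No proteasome gene of 36 was called by edgeR, DESeq2 or limma-voom (2 at an unadjusted p below 0.05, median range 0.12), and none of the 13 mitochondrially encoded genes (1 at an unadjusted p below 0.05). Of NAD and redox enzymes 1 of 20 was called (2 without the CT4 and CT20 females), Gclc, which was lost without any one of 4 libraries (the CT0 male 2, CT8 male a, CT12 male 1 or CT20 male 2; edgeR adjusted p up to 0.136).

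Called genes of cholesterol synthesis peaked by night. Of 23 genes 9 were called (39.1%, beside 15.1% of all genes), and all 9 peaked between CT17.44 and CT23.78. The median range of the 23 was 0.35, against 0.31 over all genes. Fdft1, the squalene synthase gene, had a range of 0.73 ± 0.11 (94 ± 9.58 CPM at CT4 and 152 ± 23.8 at CT20, SD, n = 3), and Fdps, the farnesyl diphosphate synthase gene, 0.64 ± 0.08. Mvk lost its call without any one of 10 libraries (edgeR adjusted p up to 0.126). Of glucose uptake and glycolysis genes 8 of 23 were called (34.8%), with a median range of 0.23. Among the 8, 2 peaked around CT0, 3 around CT4, 2 around CT8 and 1 around CT20. Pfkfb3 peaked at CT2.36, the glucose transporter gene Slc2a3 at CT7.58 and Pfkp at CT19.43. The calls of Gpi1, Pfkfb2, Tpi1, Eno1 and Slc16a1 were each lost without at least 1 single library. Of glucocorticoid and fasting responsive genes 8 of 16 were called (50%), with a median range of 0.81. Tsc22d3, which encodes GILZ, was at 80.5 to 110 CPM at CT12, above all other libraries (range 0.99, peak at CT12.80), Cdkn1a peaked at CT19.19, Plin4 at CT16.82 and Mt2, a metallothionein, by day at CT6.35. Of Krüppel-like factors 3 of 10 were called (30%, beside 15.1% of all genes), with a median range of 0.39. Klf9 peaked at CT9.87, and Klf13 and Klf16 were lost without any one of 4 and 12 libraries (edgeR adjusted p up to 0.105 and 0.137).

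**Figure D5:**
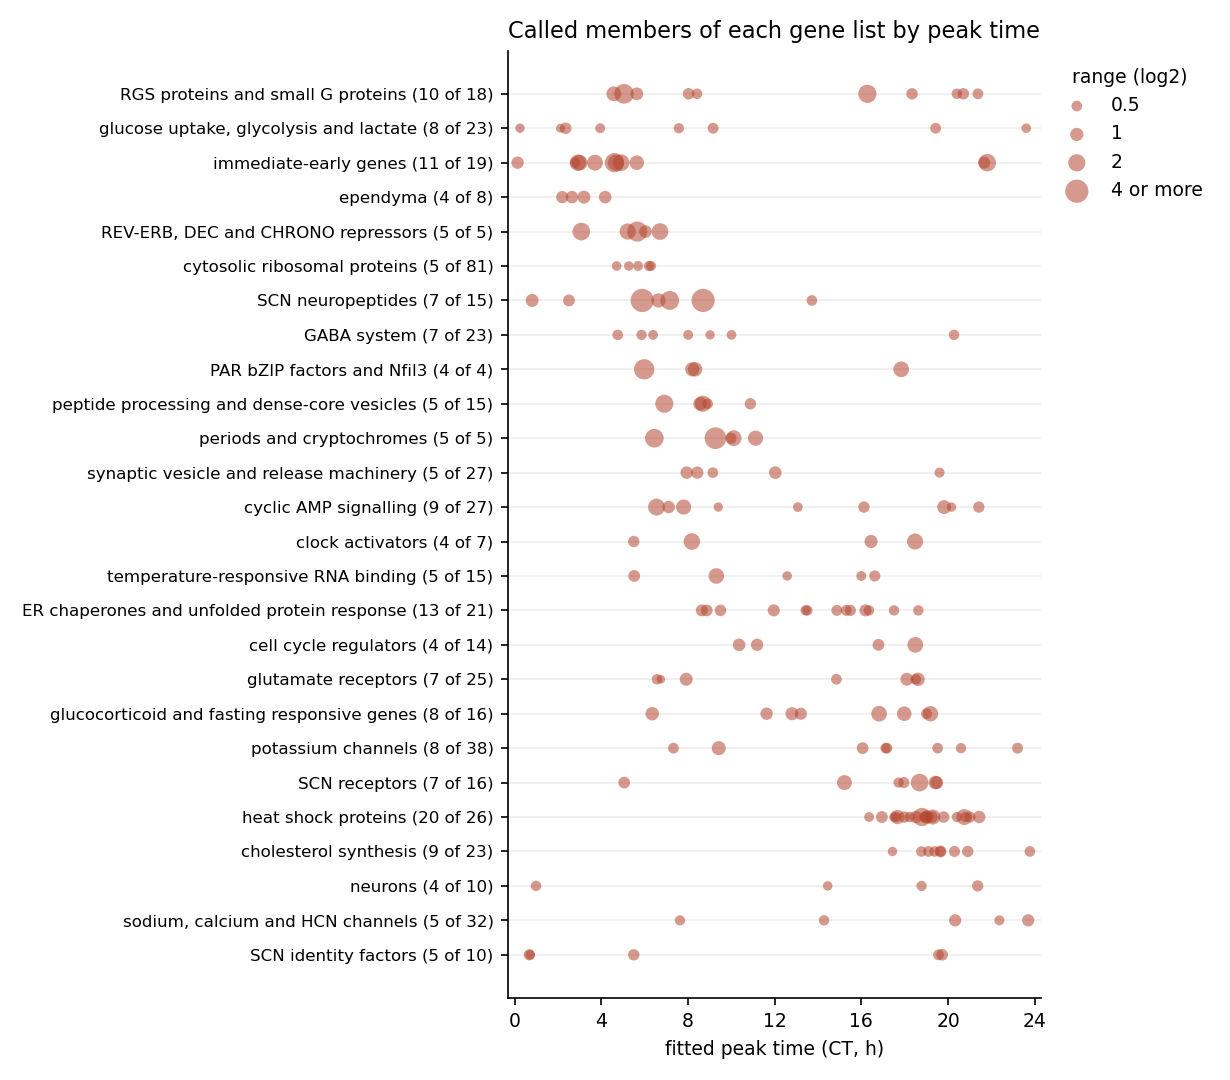
Fitted peak times (h) of the called members of each gene list with at least 4 such members, SCN neuron markers left out, 1 row per list and 1 point per gene, with a larger point for a larger fitted range and the number called of the number measured in parentheses. Most immediate-early genes gather around CT4, heat shock and cholesterol synthesis genes peak by night, and ER genes spread from CT8.64 to CT18.63.

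Markers of cell types were followed to describe which cells the libraries held at each time. SCN neuron markers were called in 8 of 11 cases (72.7%, beside 15.1% of all genes), a list that includes the peptides above. Their median range was 0.69, and they summed to 3720 to 3890 CPM at CT8 and 2270 to 2820 at CT16. Markers of neurons in general were called in 4 of 10 cases (40%, median range 0.34) and summed to between 3210 and 3750 CPM. The most abundant, Snap25 and Map2, were not called (ranges 0.13 and 0.11), while Stmn2 and Tubb3, of the cytoskeleton, peaked at CT0.99 and CT21.37 with ranges of 0.47 and 0.62, and Elavl3 at CT18.78. Elavl4 lost its call without the CT4 female (edgeR adjusted p = 0.0555). Among factors that specify the SCN, 5 of 10 were called (50%, median range 0.44). Id2 peaked at CT0.68, Nr2f1 at CT19.56 and Lhx1 at CT19.73. Lhx1 lost its call without the CT8 male b (edgeR adjusted p = 0.0685).

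Astrocyte markers were called in 2 of 14 cases (14.3%, beside 15.1% of all genes; median range 0.22). Glul, the glutamine synthetase gene, was at 856 to 872 CPM at CT4 and 1380 to 2170 at CT16, with a range of 0.80 ± 0.10 and a peak at CT16.84 (edgeR adjusted p = 7.14e-07). Fgfr3 lost its call without any one of 3 libraries, the CT4 male 2, the CT16 male 2 and the CT16 female (edgeR adjusted p up to 0.0695). Gfap and Slc1a3 were not called (ranges 0.07 and 0.09). Of oligodendrocyte precursor markers 3 of 10 were called (30%, median range 0.45): Olig2 at CT20.82 with a range of 1.14 ± 0.21 (16 to 16.5 CPM at CT8 and 27 to 37.4 at CT16), Gpr17 at CT18.10 and Olig1 at CT0.10. In mature oligodendrocytes 3 of 12 were called (25%, median range 0.24), and Mbp, a myelin protein gene, was not (range 0.12).

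Endothelial markers were called in 3 of 13 cases (23.1%, beside 15.1% of all genes; median range 0.42). Of these, Cldn5, a tight junction gene, was at 11.8 to 17.5 CPM at CT12 and 29.3 to 34.8 at CT0 (range 1.16 ± 0.14, peak at CT21.48), Abcb1a, the drug efflux pump of the blood-brain barrier, peaked at CT17.91 and Flt1 at CT19.63. Flt1 was not called without the CT4 and CT20 females (edgeR adjusted p = 0.0638). Mural cells had 2 of 10 markers called (20%; 1 without the CT4 and CT20 females and 1 with the depth term), Rgs5 at CT21.38 and Acta2 at CT1.08 (median range 0.75), where Acta2 was lost without any one of 8 libraries (edgeR adjusted p up to 0.134).

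Among markers of cells at the edge of the nucleus, some of fibroblasts and ependyma were called, and these calls were lost with the depth term or without a single library. Fibroblast markers summed to 58.5 to 91.8 CPM at CT20 and 20.4 to 43.7 at CT8. Of the 8, 3 were called (37.5%, beside 15.1% of all genes), Col1a1, Dcn and Col1a2, but none with the depth term. The median range of the 8 was 1.28. Ependymal markers, of the cells that line the ventricle, were called in 4 of 8 cases (50%), all between CT2.2 and CT4.18 (median range 0.83), 2 of them with the depth term, and each of the 4 was lost without at least 1 single library (edgeR adjusted p up to 0.158). They summed to 230 to 362 CPM at CT4 and 162 to 216 at CT16. Slc17a7, a marker of cortex, was at 18.3 CPM in the CT20 female and at most 6.55 in any other library, and lost its call without that library (edgeR adjusted p = 0.0514) and with the depth term. Col23a1, of tanycytes, was the 1 marker called of 4 (25%, lost without the CT12 male 2 or the CT12 female, edgeR adjusted p up to 0.0611, and 0 of 4 with the depth term). None of 9 markers of other hypothalamic neurons was called by edgeR, DESeq2 or limma-voom (3 at an unadjusted p below 0.05), nor either of the 2 measured for choroid plexus (0 at an unadjusted p below 0.05). Red blood cell genes were not called by edgeR or limma-voom in any of 5 cases, although DESeq2 called 4 and 4 had an unadjusted p below 0.05, and they summed to between 76.6 and 1520 CPM. The part of dissection, and of these cells, in the rhythms of other genes was not tested.

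A second harmonic was rare. A 12 h component was called in 3 genes (0.019% of those tested; 651 at an unadjusted p below 0.05): Gadd45g (edgeR adjusted p = 0.00093), Npas4 (0.00206) and Strip2 (0.0143). By limma-voom Gadd45g alone was called, with an adjusted p of 0.318 for Npas4 and 0.0564 for Strip2. Npas4, an activity-regulated factor, was at 18.1 to 25.8 CPM at CT0 and at 36.4 CPM in the CT12 female but 3.9 and 5.59 in the CT12 males, and the other libraries had 0.614 to 7.29. The call of Strip2 was lost without the CT4 male 1, the CT4 female, the CT16 male 1 or the CT16 male 2 (edgeR adjusted p up to 0.114), and without the CT4 and CT20 females together (0.126).

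The same contrast in the 18 MCD libraries of the SCN, fitted in 1 model with the control libraries that shares their scaling, sex term and spread, called 2544 genes (16.1%). Of the 2378 genes called on the control diet, 1556 (65.4%) were called on MCD and 1764 (74.2%) had a fitted peak within 2 h, against 38.8% of genes that were not called on the control diet. The lists varied in this: among called members, 11 of 11 immediate-early genes, 7 of 7 SCN receptors and 12 of 13 ER genes were within 2 h. So were 12 of 20 heat shock genes, 3 of 7 of the GABA system, 1 of 5 temperature-responsive, 1 of 8 glucocorticoid and fasting responsive genes and 0 of 2 astrocyte markers. All 20 called clock genes were also called on MCD, each with an earlier fitted peak there (MCD minus control, -3.37 to -0.46 h, median -0.87 h). The smallest adjusted p of the difference among them was 0.376 (edgeR), so for no clock gene was the difference itself shown. Over all genes the 24 h component differed between the diets in 2 (0.0127%; 596 at an unadjusted p below 0.05), Mat2a and Tsc22d3. Within the control diet, the component differed between males and females in 8 genes (0.0508%; 1237 at an unadjusted p below 0.05), with 1 female per time.

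Where 2 genes overlap on opposite strands, their reads cannot be told apart unless counting used the strand, which is not given in the sources used here. Of the 190 genes selected for description, 61 share exon bases with a gene on the other strand in GENCODE M21. Among them were Arntl, Rora, Cry2, Nr1d1 (which overlaps Thra), Bhlhe40, Bhlhe41, Dbp (Sphk2), Tef, Rgs16, Nmu, Dusp1, Bdnf, Rbm3, Tmem51, Glul, Fdft1, Gpr17, Abcb1a and Mat2a, and their values are uncertain to that extent.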

How the data were processed

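The values are raw counts of reads for each gene, as whole numbers that the authors deposited in 1 SCN table with a column per library, per the file headers. Per the submitters' processing notes, Trimmomatic, HISAT2, StringTie and DESeq2 were used with build GRCm39. The kit selected polyadenylated RNA and marked its strand, per the labels' protocols; whether counting used the strand is not given in the sources used here. All 15759 genes in the table were tested. Columns of the CT8 control males have 1 name in common and are called a and b here.

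Counts were fitted with edgeR 4.0.16 (TMM library sizes, quasi-likelihood F tests) over all 36 SCN libraries of both diets, with 12 means (diet by time) and a sex term, and the 24 h component was tested as a contrast of the 6 control time means with 2 degrees of freedom. Ranges and peak times with their standard errors came from a 24 h cosinor with a sex term on log2 CPM (prior count 2). A gene was called at an adjusted p (Benjamini-Hochberg over all genes tested) below 0.05. Replicates were 2 male mice and 1 female mouse per time, per the series' design text. Differences between replicate libraries exceeded sampling noise in every pair (chi-square per degree of freedom of 29.5 to 133.5). Depth was 23.4 to 79.8 M counts per library, so 1 CPM was at least 23 counts. Scripts were tested on simulated data.

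The genes described were the measured members of 5 clock lists, the 5 called genes of largest range with a mean of at least 5 CPM in each of 6 peak windows, up to 4 called members of every other list, the 2 most abundant markers of each cell type, and the 3 of smallest adjusted p in the 12 h and sex tests with a mean of at least 5 CPM. Further list members and Mb, Tnnt2 and Fn1 were named after their values were seen. Some genes that this rule selects are not reported here. Members and lists were chosen with earlier results of these data known. Alternatives were DESeq2 1.42.0, limma-voom (limma 3.58.1), other scalings and filters, the 18 control libraries alone, a cosinor test, males alone, no sex term, replicate blocks and leaving out each library. The fits without the CT4 and CT20 females and with a library-total term were chosen after seeing the data.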

Additional observations from a re-analysis of the deposited data

Results flagged for a closer look

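The results below drew attention because a test of the difference between 2 groups passed its threshold, either between the diets or between the sexes. All adjusted p are from edgeR's quasi-likelihood test.

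Mat2a, which encodes the enzyme that makes S-adenosylmethionine, had no called 24 h component on the control diet, where its means ran from 132 ± 13.5 CPM at CT16 to 164 ± 6.83 at CT4 (SD, n = 3), and a range of 0.25 ± 0.08 log2 (SE). In the MCD libraries its means ran from 111 ± 13.8 CPM at CT8 to 296 ± 24.4 at CT16 and 296 ± 66.7 at CT20 (SD, n = 3). The 24 h component differed between the diets (adjusted p = 2.55e-07), and it did so without each control library in turn (adjusted p up to 1.66e-06). Mat2a overlaps Particl on the opposite strand.

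Tsc22d3 was called on the control diet, with a mean of 39.2 ± 2.14 CPM at CT4 and 93.5 ± 15.3 at CT12 (SD, n = 3). On MCD the means at these times were 67.8 ± 9.21 and 101 ± 8.48 (SD, n = 3). The difference between the diets had an adjusted p of 0.0377, which was lost without any one of 10 of the 18 control libraries (up to 0.155) and among males alone (0.55).

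The 24 h component differed between the sexes in 8 genes, with 1 female library per time. Eif2s3y, a Y-linked gene, was at 14.5 to 25.6 CPM in males and 0 to 0.689 in females (adjusted p = 0.00808, and 0.0817 without the CT12 female), so that its fitted rhythm in females rests on counts near 0. Usp50 (adjusted p = 0.0448) was at 0 CPM in the CT0, CT4 and CT20 females and at 7.99 to 10.1 in the other females, and the same females had 0 CPM of Mcm5, Trpc6 and Tnnt1 (adjusted p = 0.0448 each) and of Gm13594 (0.0473). The CT4 and CT20 females also had the most genes at 0 counts. Gm43302 (0.0448) was at 0 CPM in the CT8, CT12 and CT16 females, and Sv2b (0.0473) was at 8.67 to 11.6 CPM in the CT0, CT4 and CT20 females and 16.1 to 21.8 in the others. Apart from Eif2s3y, each of these calls was lost without any one of 14 to 18 single libraries, and limma-voom called 0 genes.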

How the results depend on the processing

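The count of genes with a 24 h component on the control diet (2378) stayed within 1.5 times under every alternative run: 2921 by DESeq2, 2683 by limma-voom, 2384 with DESeq2's size factors, 2355 with library totals, 2381 at a mean of at least 1 CPM, 2074 from the 18 control libraries alone, 2187 by a cosinor test, 2157 in males (1618 shared), 2006 with no sex term, 2334 without the CT4 and CT20 females, 1876 with the library-total term, and 1803 to 2615 without single libraries. The fit with no filter gave 2378 again because the filter had removed no gene, so it tests nothing further. Of the 190 genes selected for description 159 were called. Of these, 115 kept their call without each single library. In both the fit without the CT4 and CT20 females and that with the library-total term, 122 kept it. Cosinor ranges and peaks were refitted with library totals, other prior counts, males alone, without the CT4 and CT20 females and without single libraries: there the median range of called genes was 0.52 to 0.55, and at most 8 of 2378 peaks moved by over 2 h and none by over 6 h.

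Counts of the other tests moved by over 1.5 times under some alternatives. The any-time test called 2103 genes by DESeq2 and 1067 to 1420 without single libraries, against 1354. The 12 h component was called in 5 genes from the 18 control libraries, 9 in males, 1 by limma-voom, 15 by DESeq2 and 2 to 6 without single libraries, against 3. On MCD the count in males was 1687, against 2544. The difference between diets was called in 1 gene in males, 1 without the CT4 and CT20 females, 8 by DESeq2 and 1 to 4 without single libraries, and that between sexes in 0 by limma-voom, 5 without those females, 94 by DESeq2 and 1 to 12 without single libraries. The cause was not tested. In the 250 bases before the start alone an E-box was in 15.7% of promoters around CT8, against 9.78% of all. The depth limits genes near 0 CPM, such as Nmu.

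Replicate numbers were not taken as pairs, for which every correlation would have to exceed 0.1. Deviations of libraries with the same number had correlations of -0.101 to 0.284 (61 of 165 above 0.1), and 24 of 33 libraries correlated best with their own number. All females had the same number and the deviations were not adjusted for sex. Number and sex thus cannot be told apart in the females, and no pairing was read from this. With the number as a replicate block, and the CT8 males taken in either order, counts were 2559 and 2345 for the 24 h component, 1478 and 1324 for any time, 3 and 3 for 12 h, 2715 and 2535 on MCD and 2 and 2 for the difference between diets.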
